A study of Mus musculus with 48 samples.

Results

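The cytokine genes Il4, Il13, Il6, Lta, Tnf and Il1a were followed in 48 arrays of BCR/ABL-expressing 32D cells, a mouse myeloid progenitor line. The members were all probe sets annotated to these 6 genes, which came to 6 of the 45101 probe sets on the array, 1 for each gene, out of 18193 named genes. The genes were chosen on measured values, their levels in all 48 arrays and their changes against vector cells, so those levels and changes are given as a description, without a test. Where a member is said below to pass, miss or lose the threshold, this tells how the fit labelled it and is not evidence of a change. Of the 6 members, 5 passed the filter on low signals and 1, Il13, did not. Lta passed it through the vector arrays alone and Il1a through the Δ(177-191) arrays alone.

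All cells expressed the BCR/ABL oncoprotein and were treated with 4-hydroxytamoxifen (4-HT), in a medium for which serum, glutamine and antibiotics are listed and no cytokine. The MigRI retroviral vector was either empty or carried C/EBPα joined to the estrogen receptor's hormone-binding part (C/EBPα-ER), whose activity 4-HT switches on. The fusion was wild type (WT), K298E, a mutant that does not bind DNA, or Δ(177-191), a mutant impaired in its contact with CDK2 and CDK4. RNA was taken at 0, 6, 9 and 12 h, with 3 arrays for each of the 16 groups of line and time. The labels name 1 line for each construct and no culture without 4-HT at a later time, so a difference between lines cannot be told apart from a difference between the cultures from which they grew. Nothing ties an array to a separate culture beyond a mention of 3 experiments, so the spread between arrays may be partly technical.

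The arrays had median signals of 11 to 19, and 0.324% to 3.40% of probe sets were at 0. The Δ(177-191) arrays stood apart from the others, and every value for that line rests on them. On the first principal component, with 55.0% of the variance, they lay at 33.6 to 62.6, and all other arrays at -28.7 to -5.0. The Esr1 probe set, which reads the fusion's receptor part, was at 5 to 29 in vector arrays. It was at 728 to 1599 in K298E, 1927 to 2607 in WT and 2787 to 4472 in Δ(177-191) arrays. These ranges did not overlap, so a difference between fusion lines cannot be told apart from one of fusion transcript level. Of 12 markers of myeloid progenitors, 9 were above the median signal of 14 in vector and K298E cells and 10 in WT and Δ(177-191) cells. The progenitor markers Kit and Cd34 had no group mean above 15.7 and 9, and the elastase gene Elane none above 20.

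Cytokines are secreted or membrane-bound proteins by which blood cells signal to each other. IL-4 and IL-13 share a receptor chain and signal through STAT6, and their genes lie next to each other in a cluster active in T helper 2 cells, mast cells and basophils. IL-6 signals through gp130 and STAT3 and drives the acute phase response. TNF and lymphotoxin α, the product of Lta, are related ligands with shared receptors and neighbouring genes, and IL-1α is an alarm signal that, like TNF, activates NF-κB. C/EBP proteins, also known as NF-IL6 factors, and NF-κB are textbook regulators of inflammatory cytokine genes in myeloid cells.

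The bases just upstream of 4 members are shown because these genes changed after 4-HT in at least 1 fusion line. Each sequence is the 250 bases before the transcript start in RefSeq, build GRCm38.p6, and capitals mark letters that match TTNNGNAA, a loose C/EBP pattern, or the NF-κB pattern, on either strand. The windows are chr11:53618666-53618915 on the minus strand for Il4 (the outer of its 2 annotated starts, the other window holding none of these letters), chr5:30012864-30013113 on the plus strand for Il6, chr17:35202008-35202257 on the minus strand for Tnf and chr2:129309973-129310222 on the minus strand for Il1a.
Il4: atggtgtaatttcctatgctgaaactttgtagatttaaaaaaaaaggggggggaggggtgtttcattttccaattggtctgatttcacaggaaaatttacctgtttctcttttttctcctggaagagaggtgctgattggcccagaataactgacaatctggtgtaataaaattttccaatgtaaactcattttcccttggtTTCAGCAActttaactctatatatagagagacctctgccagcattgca
Il6: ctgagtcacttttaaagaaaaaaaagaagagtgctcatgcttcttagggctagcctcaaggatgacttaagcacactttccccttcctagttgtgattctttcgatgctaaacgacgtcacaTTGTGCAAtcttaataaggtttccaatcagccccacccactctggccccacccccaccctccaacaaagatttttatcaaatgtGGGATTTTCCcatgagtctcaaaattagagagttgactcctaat
Tnf: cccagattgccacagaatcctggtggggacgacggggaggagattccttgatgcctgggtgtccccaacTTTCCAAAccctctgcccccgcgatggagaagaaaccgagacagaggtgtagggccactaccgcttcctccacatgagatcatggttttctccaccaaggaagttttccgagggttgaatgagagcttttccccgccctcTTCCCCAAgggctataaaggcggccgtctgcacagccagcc
Il1a: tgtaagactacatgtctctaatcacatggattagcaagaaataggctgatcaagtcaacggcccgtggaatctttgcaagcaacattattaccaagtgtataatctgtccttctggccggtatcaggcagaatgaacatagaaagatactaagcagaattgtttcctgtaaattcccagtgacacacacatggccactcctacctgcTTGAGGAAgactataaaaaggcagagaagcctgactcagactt
Counting back from -1 at the last base before the start, Il4 held the C/EBP letters at -48 to -41, Il6 at -128 to -121, Tnf at -181 to -174 and at -41 to -34, and Il1a at -43 to -36. Of all 32851 promoter windows of that length, 36.8% held this pattern. The NF-κB pattern stood in Il6 alone of the 4, at -44 to -35, against 4.11% of all windows, and there it overlaps GGAAAA, the core read by NFAT factors. That core was also found at 4 places in Il4 and 2 in Tnf, against 20.4% of all windows. The AP-1 letters TGANTCA were in Il6 and Il1a, against 6.75% of all windows. Of the members whose bases are not printed, Il13 held the C/EBP letters too, at -131 to -124 and at -130 to -123, and the NFAT core. Lta held neither of these. Such matches describe the letters and are not shown to be sites.

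Il4 rose in the WT line and, from a start near the floor, in the Δ(177-191) line. Its signals in WT cells were 87, 74 and 83 at 0 h, 684, 601 and 524 at 6 h, 620, 553 and 584 at 9 h, and 650, 701 and 667 at 12 h. All 9 arrays after 4-HT were above every 0 h array, and the lowest of them was 524 against a highest of 87 before. In vector cells Il4 was at 73, 65 and 75 at 0 h, 58, 57 and 77 at 6 h, 60, 55 and 46 at 9 h, and 47, 43 and 46 at 12 h. Of those 9 later vector arrays 8 were below every 0 h array. The K298E signals were 35, 32 and 45 at 0 h, 41, 45 and 44 at 6 h, 53, 42 and 33 at 9 h, and 40, 52 and 34 at 12 h, with 2 of 9 above every 0 h array and 0 below. In Δ(177-191) cells Il4 began near the floor, at 7, 1 and 12, and then read 25, 12 and 9 at 6 h, 80, 69 and 59 at 9 h, and 36, 53 and 61 at 12 h. There 7 of 9 later arrays were above every 0 h array, and the exceptions were at 6 h.

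On the scale of log2(signal + 3), Il4 rose in WT cells by 2.84 ± 0.26 (model standard error) at 6 h, 2.80 ± 0.26 at 9 h and 3.0 ± 0.26 at 12 h from the line's own 0 h. With Δ(177-191) it rose by 1.02 ± 0.26, 3.09 ± 0.26 and 2.62 ± 0.26 at these times. The relative change, which is that change minus the change in vector cells, was 2.99 ± 0.37, 3.20 ± 0.37 and 3.62 ± 0.37 at the 3 times. At 12 h the relative change in K298E cells was 0.76 ± 0.37. For Δ(177-191) it was 1.18 ± 0.37 at 6 h, 3.48 ± 0.37 at 9 h, above the WT value of that time, and 3.23 ± 0.37 at 12 h. The Δ(177-191) mean at 0 h was 6.67 ± 5.51 (SD, n = 3), so that line's values depend on the added 3, and with 32 added the 12 h value was 1.49. The WT value was 3.05 with 32 added. Averaged over the 3 times, the WT change minus the Δ(177-191) change was 0.64 ± 0.30, which did not pass the threshold, and with 32 added it was 1.60 and passed. At 0 h Il4 differed from vector by 0.19 ± 0.26 in the WT line, by -0.89 ± 0.26 in the K298E line, a call lost in 8 of 9 fits with replicates left out, and by -3.13 ± 0.26 in the Δ(177-191) line. The level that Δ(177-191) cells reached at 12 h, 50 ± 12.8, was below the WT level of 673 ± 26.0 and near the vector level of 45.3 ± 2.08.

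The groups of Il4 can be set in order by their mean on the log2 scale, with neighbours called unequal where the gap was wider than the larger of their SDs. WT cells at 12, 6 and 9 h led, with gaps among them within the spread, and a gap beyond it separated them from WT at 0 h. WT at 0 h was also beyond the spread above the next group, vector at 0 h. From vector at 9 h through Δ(177-191) at 12 h, vector at 12 h and K298E at 6, 9, 12 and 0 h no neighbours differed beyond the spread. Δ(177-191) at 6 h and at 0 h closed the order, each beyond the spread below the group before it. The 3 genes most like Il4 over the 16 group means were Ocrl, an inositol phosphatase (Pearson r = 0.93), Timm29 of the mitochondrial inner membrane (r = 0.93) and St3gal4, a sialyltransferase (r = 0.92), points that share lines and times.

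**Figure D1:**
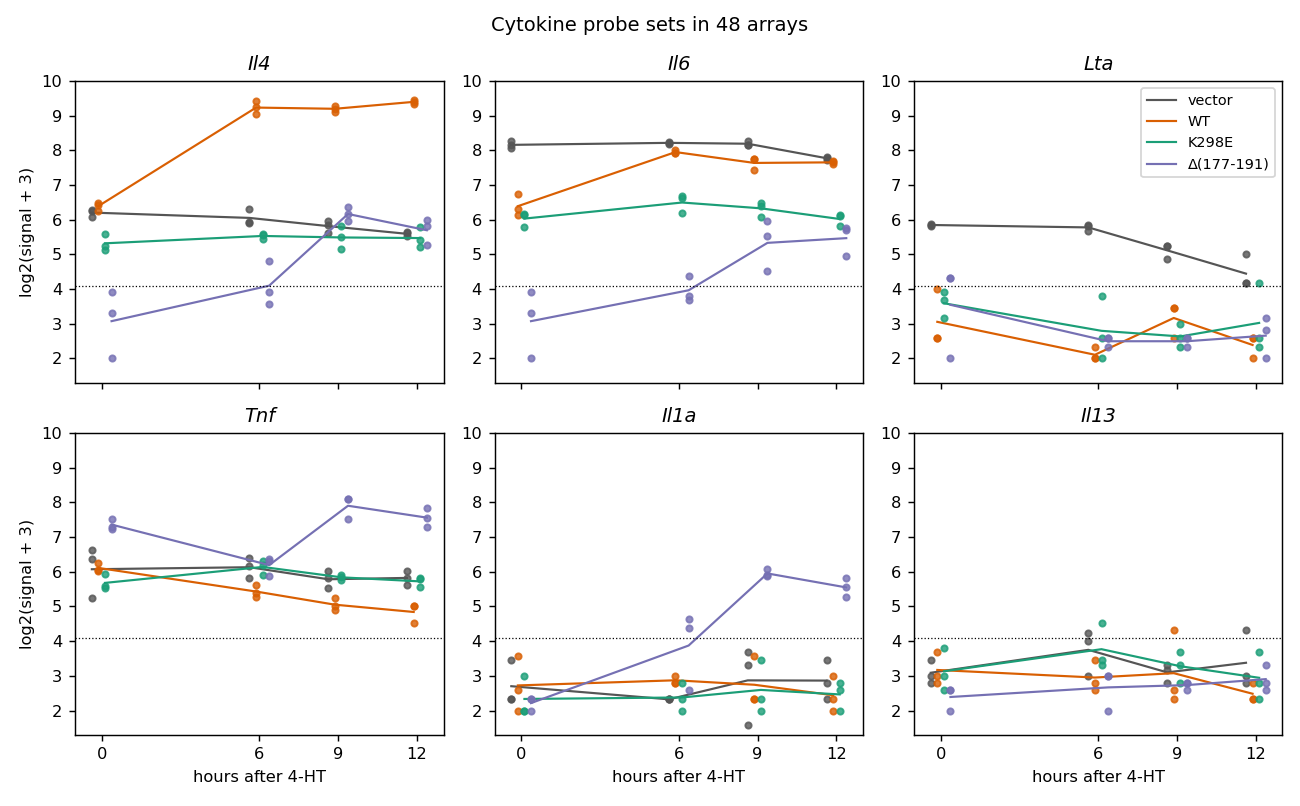
Level of each cytokine probe set as log2(signal + 3) against hours after 4-HT, with 1 point for each of 48 arrays, lines through the means of 3 arrays and a dotted line at the median of all values, 4.09. Il4 lies highest in WT cells after 4-HT, Il6 and Lta in vector cells, Tnf and Il1a in Δ(177-191) cells, and Il13 stays below the dotted line in each group mean.

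Il13, the neighbour of Il4, stayed near the floor in every line. Its 48 signals ran from 1 to 20 with a median of 4.5, and 13 of them were at 3 or below. No group mean exceeded 11.7, reached in K298E cells at 6 h, which on the log2 scale was 3.77 against the filter's 4.09. In WT cells, where Il4 rose, Il13 was at 5, 4 and 10 at 0 h and at 2, 4 and 2 at 12 h. Along the order of its 16 groups no neighbours differed beyond their spread. So of the IL-4 and IL-13 pair on chromosome 11 only the Il4 probe set gave a signal above this floor, and the array cannot show whether Il13 changed beneath it.

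Il6 was high in vector cells before 4-HT and much lower in every fusion line. Its signals at 0 h were 266, 281 and 303 in vector, 67, 76 and 104 in WT, 69, 68 and 52 in K298E, and 12, 7 and 1 in Δ(177-191) cells. No fusion array at 0 h overlapped the vector arrays. After 4-HT the WT signals were 239, 241 and 254 at 6 h, 169, 211 and 212 at 9 h, and 204, 194 and 198 at 12 h. All 9 were above every WT array at 0 h, yet at each of the 3 times all WT arrays stayed below all vector arrays. Vector cells read a mean of 295 ± 4.16 (SD, n = 3) at 6 h, and 285, 303 and 281 at 9 h, and 220, 219 and 209 at 12 h, so 3 of their 9 later arrays, those of 12 h, were below every 0 h array.

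The K298E signals of Il6 were 96, 99 and 70 at 6 h, 65, 87 and 82 at 9 h, and 68, 66 and 53 at 12 h, with 5 of 9 above every 0 h array of the line. In Δ(177-191) cells they were 10, 11 and 18 at 6 h, 20, 59 and 43 at 9 h, and 28, 51 and 49 at 12 h, with 7 of 9 above every 0 h array. From the own 0 h, Il6 rose in the WT line by 1.56 ± 0.27 at 6 h, 1.25 ± 0.27 at 9 h and 1.26 ± 0.27 at 12 h, and in the Δ(177-191) line by 0.89 ± 0.27, 2.26 ± 0.27 and 2.39 ± 0.27. The relative change at 12 h was 1.65 ± 0.39 in WT cells, 0.37 ± 0.39 in K298E cells and 2.78 ± 0.39 with Δ(177-191). The difference from vector at 0 h was -1.77 ± 0.27 in WT cells, -2.13 ± 0.27 in K298E cells and -5.08 ± 0.27 with Δ(177-191). With 32 added before the logarithm the Δ(177-191) values were 1.29 for the relative change and -3.04 at 0 h. In the order of its groups vector at 6, 9 and 0 h stood first without differing beyond the spread, then came WT at 6 h, vector at 12 h and the other WT groups after 4-HT. The genes most like Il6 over the 16 group means were Nrarp, a regulator of Notch signalling (r = 0.94), Cd55, a complement inhibitor (r = 0.92), and Inpp5a, an inositol phosphatase (r = 0.91).

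Lta was above the floor in vector cells alone. Its vector signals were 53, 55 and 56 at 0 h, 53, 55 and 48 at 6 h, 26, 35 and 35 at 9 h, and 29, 15 and 15 at 12 h. At 0 h it was at 3, 13 and 3 in WT, 12, 10 and 6 in K298E, and 17, 17 and 1 in Δ(177-191) cells, with no overlap with vector. After 4-HT no fusion array exceeded 15, and 23 of all 48 arrays were at 3 or below. In vector cells 7 of 9 later arrays were below every 0 h array, a log2 change of -1.40 ± 0.49 at 12 h that did not pass the threshold. The relative changes at 12 h, 0.74 ± 0.70 in WT cells, 0.84 ± 0.70 in K298E cells and 0.51 ± 0.70 with Δ(177-191), did not pass either. A gene near the floor cannot be seen to fall further, so these values do not compare responses. At 0 h the difference from vector was -2.79 ± 0.49 in WT cells, -2.26 ± 0.49 in K298E cells and -2.30 ± 0.49 with Δ(177-191), and with 32 added these were -1.19, -1.07 and -1.01. Vector at 0 and 6 h led the order of groups without differing beyond the spread, vector at 9 and 12 h followed, each apart from its neighbours, and none of the other 12 groups differed from its neighbour beyond the spread. Cdh5, a cadherin of endothelium (r = 0.93), Sema7a, a membrane-bound semaphorin (r = 0.92), and Cda, cytidine deaminase (r = 0.88), had the most similar group means.

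Tnf, whose gene adjoins Lta, was above the floor in every line. In WT cells its signals were 63, 74 and 62 at 0 h, 36, 39 and 46 at 6 h, 27, 29 and 35 at 9 h, and 29, 29 and 20 at 12 h, with all 9 later arrays below every 0 h array. In vector cells they were 95, 79 and 35 at 0 h, 81, 69 and 54 at 6 h, 43, 53 and 62 at 9 h, and 62, 46 and 54 at 12 h, with 0 of 9 outside the range of the 0 h arrays. K298E cells read 58, 43 and 45 at 0 h, 57, 76 and 71 at 6 h, 57, 51 and 55 at 9 h, and 52, 44 and 54 at 12 h, with 2 of 9 above every 0 h array and 0 below. Δ(177-191) cells began higher, at 149, 182 and 155, went down to 77, 56 and 80 at 6 h, up to 270, 272 and 180 at 9 h, and stood at 153, 185 and 227 at 12 h.

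Tnf fell in the WT line at each time, with log2 changes from its own 0 h of -0.68 ± 0.22, -1.06 ± 0.22 and -1.27 ± 0.22 at 6, 9 and 12 h. Relative to vector the change at 12 h was -1.02 ± 0.31 in WT cells, 0.29 ± 0.31 in K298E cells and 0.45 ± 0.31 with Δ(177-191). Without vector replicate 3 at 0 h, the array at 35, the WT value was -0.61 and no longer passed. With Δ(177-191) Tnf fell at 6 h from its own 0 h (-1.17 ± 0.22), and at 9 and 12 h the change was 0.54 ± 0.22 and 0.20 ± 0.22, neither past the threshold. At 0 h this line was above vector by 1.29 ± 0.22. Δ(177-191) at 9 h led the order of groups beyond the spread, and WT at 6, 9 and 12 h closed it. The genes most like Tnf over the 16 group means were Hcls1, a cytoskeletal adaptor of blood cells (r = 0.96), and the NF-κB family genes Relb (r = 0.95) and Nfkb2 (r = 0.94). The Δ(177-191) line's Relb had group means of 122, 65, 197 and 138 at 0, 6, 9 and 12 h, a dip and a peak at the same times as Tnf. These genes were picked for their likeness to Tnf over the same means, so the shared course follows from that choice.

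Il1a was above the floor in Δ(177-191) cells alone, and there from the later times on. Its signals in that line were 2, 2 and 1 at 0 h, 22, 18 and 3 at 6 h, 64, 56 and 57 at 9 h, and 36, 53 and 44 at 12 h, so that all 9 later arrays were above every 0 h array. Vector arrays lay between 0 and 10, WT arrays between 1 and 9 and K298E arrays between 1 and 8, without regard to time. Il1a rose from the own 0 h in Δ(177-191) cells by 1.66 ± 0.52 at 6 h, 3.74 ± 0.52 at 9 h and 3.33 ± 0.52 at 12 h. The relative change was 3.57 ± 0.74 at 9 h and 3.17 ± 0.74 at 12 h, and at 12 h it was -0.44 ± 0.74 in WT and -0.03 ± 0.74 in K298E cells. Since the start was at the floor, the 12 h value was 1.15 with 32 added. Δ(177-191) at 9 h and then at 12 h led the order of groups, each beyond the spread above the next, and from Δ(177-191) at 6 h down no neighbours differed beyond the spread. Tram2 (r = 0.98), Slc43a3 (r = 0.95), a solute carrier gene, and Stx6, a syntaxin of vesicle transport (r = 0.95), were most like it.

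**Figure D2:**
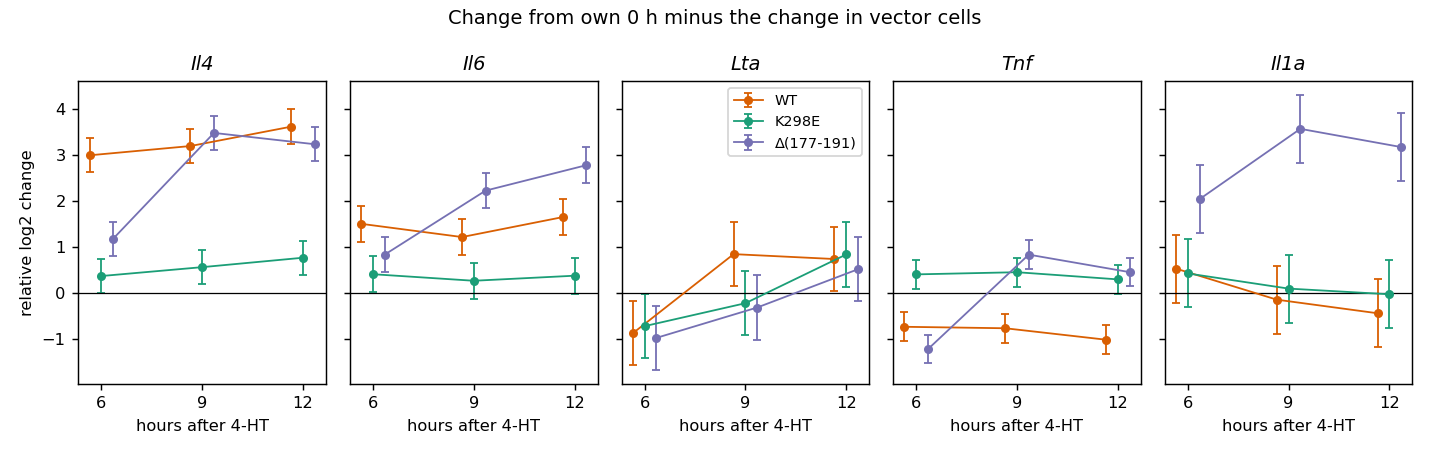
Relative log2 change of the 5 members above the floor at 6, 9 and 12 h, the change from the line's own 0 h minus that in vector cells, with bars of 1 model standard error. Il4 lies between 2.99 and 3.62 in WT cells, and in Δ(177-191) cells it is at 1.18, 3.48 and 3.23 at 6, 9 and 12 h, Tnf lies below 0 in WT cells, Il1a departs from 0 in Δ(177-191) cells, and no K298E value passed the threshold.

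The 5 members above the floor were set against the share of all 27167 tested probe sets that passed in limma's moderated test at an adjusted p under 0.05. Relative to vector 2 of 5 were called higher and 0 lower in WT cells at 6 h (4.77% of all probe sets called) and 1 and 0 at 9 h (4.62%). At 12 h 2 were called higher and 1 lower in WT cells, with 5.38% of all probe sets called. For Δ(177-191) the counts were 1 higher and 1 lower at 6 h (13.9%), 3 and 0 at 9 h (17.3%), and 3 and 0 at 12 h (17.1%). In K298E cells limma called 0 of 5 at 6 h (0.942%), 9 h (3.89%) and 12 h (4.20%), where an unadjusted p under 0.05 gave 0, 0 and 1. At 0 h against vector, 2 were lower in WT (4.06% of all probe sets called), 3 lower in K298E (4.82%), and 3 lower and 1 higher in Δ(177-191) cells (23.0%). From its own 0 h, WT had 2 higher and 1 lower at 6 h (26.1%), 9 h (24.9%) and 12 h (25.4%), and Δ(177-191) had 3 and 1 at 6 h (24.6%), 3 and 0 at 9 h (26.8%) and 3 and 0 at 12 h (25.2%). K298E had 0 called by limma at 6 h (9.23%), 9 h (3.81%) and 12 h (1.80%), with 1, 0 and 0 at an unadjusted p under 0.05, and vector had 0 at 6 h (15.5%), 9 h (14.9%) and 12 h (13.6%), with 0, 0 and 2. The mean change of WT minus that of K298E was called for 3 members (13.7%), and minus that of Δ(177-191) for 2 (19.8%). Of all tested probe sets, 8.43% had all 9 later WT arrays above every 0 h array and 10.9% had them below. The same shares for Δ(177-191) were 7.38% and 10.0%, and 8.36% had all later vector arrays below. At 0 h, all 3 arrays of WT were below every vector array for 11.1% of probe sets, of K298E for 12.1% and of Δ(177-191) for 19.4%, with 17.6% above. Nothing is read from the members' counts, because the genes were chosen with these values known. The comparisons with vector share the vector arrays.

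Genes that make, receive and answer these cytokines were taken from 9 lists, with 134 of 173 genes tested. In WT cells at 12 h relative to vector 13 were higher and 11 lower, where 3.81% of all 12800 genes were called higher and 3.37% lower. The K298E counts were 24 higher and 4 lower, against 3.37% and 2.23%, and those of Δ(177-191) 45 and 10, against 9.94% and 12.4%. The median relative change of the list genes was 0.09 in WT cells, 0.26 in K298E cells and 0.33 with Δ(177-191), and that of all genes -0.03, 0.02 and -0.04. At 0 h against vector 13 list genes were higher and 10 lower in WT cells (2.91% and 2.80% of all genes), 4 and 17 in K298E cells (3.01% and 3.45%), and 55 and 19 with Δ(177-191) (13.2% and 15.3%). The named genes are the 2 largest rises and falls of each list among those that passed the threshold in WT cells at 12 h. Larger changes with wider errors did not pass and are not named. Values of the other fusion lines are given for some of the named genes, and a change named for WT cells need not be particular to that line.

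Among 9 receptor chains, 2 were higher and 1 lower in WT cells. Il4ra, the IL-4 receptor's α chain, fell in WT cells, from 567 ± 49.7 to 178 ± 10.0, while vector cells went from 612 ± 81.3 to 449 ± 21.7 (SD, n = 3 each), giving a relative change of -1.22 ± 0.12 (limma adjusted p = 1.58e-10). Its relative change was 0.03 ± 0.12 in the K298E line (limma adjusted p = 0.962), and it stood at -0.19 ± 0.12 in Δ(177-191) cells (adjusted p = 0.336). So in WT cells the ligand gene Il4 was higher and the receptor gene Il4ra lower at 12 h. Tnfrsf14, a receptor that binds lymphotoxin α, went from 20.3 ± 12.3 to 119 ± 12.1 in WT cells, a change of 2.52 ± 0.41 from the line's own 0 h. In vector cells it went from 7.33 to 1.67, beneath the median signal of 14. That vector fall is part of the relative change in WT cells (3.57 ± 0.58, limma adjusted p = 2.29e-05). Tnfrsf1a, the main TNF receptor, was higher relative to vector (0.63 ± 0.14, limma adjusted p = 0.00318) with WT signals of 288 and 290 and vector signals of 277 and 181 at 0 and 12 h. Receptor chains had 0 of 9 called in K298E cells by limma (1 higher at an unadjusted p under 0.05) and 3 higher in Δ(177-191) cells.

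Of 12 decoys, antagonists and release enzymes 2 were higher in WT cells and 0 lower (3 and 0 at an unadjusted p under 0.05). Adam17, the protease that sheds TNF from the membrane, rose from 464 ± 15.7 to 599 ± 14.1 in WT cells (0.48 ± 0.12, limma adjusted p = 0.0122) and went from 867 ± 66.7 to 1452 ± 44.9 in Δ(177-191) cells (0.85 ± 0.12, adjusted p = 9.91e-07). Rhbdf2, which carries that protease to the surface, was higher relative to vector in all fusion lines (0.85, 0.78 and 1.15 in WT, K298E and Δ(177-191)), and the vector signal went from 171 to 92. Of 16 signal transducers 2 were lower in WT cells, the NF-κB kinase subunit gene Ikbkg (-0.61 ± 0.17, limma adjusted p = 0.0269) and the cytokine receptor kinase gene Jak1 (-0.53 ± 0.14, adjusted p = 0.0175), and 0 were higher (2 at an unadjusted p under 0.05). In K298E cells 3 were higher and 1 lower, and in Δ(177-191) cells 5 and 1.

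Of 22 transcription factors known to act at cytokine genes 1 was higher and 2 lower in WT cells. Rel, the c-Rel subunit of NF-κB, went from 20 ± 1.0 to 38 ± 4.36 in WT cells (1.17 ± 0.32, limma adjusted p = 0.0193) and from 31 ± 7.21 to 128 ± 5.86 in Δ(177-191) cells (2.31 ± 0.32, adjusted p = 4.17e-07). Gata2, a factor of mast cells and basophils as well as of progenitors, fell in WT cells from 1841 to 945 (-0.69 ± 0.12, limma adjusted p = 6.78e-05), and Stat5a fell there too (-0.79 ± 0.20, adjusted p = 0.00933). Both were also lower with Δ(177-191), Gata2 at -1.03 ± 0.12 (limma adjusted p = 5.45e-09) and Stat5a at -1.33 ± 0.20 (adjusted p = 1.81e-06). In K298E cells they were at 0.35 ± 0.12 (limma adjusted p = 0.0941) and 0.18 ± 0.20 (adjusted p = 0.789). Δ(177-191) cells had 7 factors higher and 5 lower. Of 22 feedback inhibitors and mRNA decay factors, 1 was higher and 3 lower in WT cells, 5 and 1 in K298E, and 10 and 2 in Δ(177-191) cells. Irak3, which damps signals of IL-1 and Toll-like receptors, rose in WT cells from 134 ± 13.5 to 497 ± 17.8 (2.46 ± 0.30, limma adjusted p = 8.13e-08) and was at 3 and 2 in Δ(177-191) cells. In K298E cells it went from 91.7 to 174 (1.44 ± 0.30, limma adjusted p = 0.00187). Zfp36l2, a factor that binds AU-rich mRNA, was at -0.65 ± 0.14 in WT cells (limma adjusted p = 0.00236) and Tnip1, an inhibitor of NF-κB signalling, at -0.53 ± 0.11 (adjusted p = 6.00e-04). With Δ(177-191) they were at -1.21 ± 0.14 (limma adjusted p = 1.40e-08) and -0.49 ± 0.11 (adjusted p = 0.000542). In K298E cells they were at 0.22 ± 0.14 (limma adjusted p = 0.548) and 0.25 ± 0.11 (adjusted p = 0.226).

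Of 40 other cytokine genes 23 were tested, with 1 higher and 1 lower in WT cells, 5 and 0 in K298E, and 6 and 0 in Δ(177-191) cells. Csf1, the macrophage growth factor, was 0.44 ± 0.11 higher relative to vector in WT cells (limma adjusted p = 0.00807), while its signal went down from 602 ± 6.43 to 304 ± 25.7 in WT and from 424 to 156 in vector cells. The Δ(177-191) line's Csf1 went from 1233 ± 22.0 to 1902 ± 197 (2.04 ± 0.11, adjusted p = 4.04e-18). Ebi3, a subunit of IL-27 and IL-35, fell in WT cells (-0.56 ± 0.10, limma adjusted p = 0.00012). The genes of the T helper 2 cytokine Il5 and of Il3 and Csf2 were on the array and did not pass the filter.

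The lists of genes that these cytokines are known to induce were counted last. Of 10 tested genes induced by IL-4 or IL-13 in macrophages, 2 were higher and 0 lower in WT cells (3 and 0 at an unadjusted p under 0.05). Mgl2, a lectin of macrophages and dendritic cells, rose from 102 ± 13.4 to 291 ± 7.57 (2.05 ± 0.46, limma adjusted p = 0.00273), and Pdcd1lg2, the checkpoint ligand PD-L2, was at 0.85 ± 0.26 (adjusted p = 0.0368). Arg1, Chil3 and Retnla, the best known of the list, did not pass the filter. Of 13 genes induced by IL-6 through STAT3, 1 was higher and 2 lower in WT cells. The acute phase gene Hp rose there from 5.33 ± 3.06 to 78.3 ± 4.04 (3.25 ± 0.40, limma adjusted p = 7.18e-08), while the kinase gene Pim1 fell (-0.63 ± 0.16, adjusted p = 0.0116).

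Of 18 genes induced by TNF or IL-1 through NF-κB, 3 were higher and 1 lower in WT cells, 8 and 0 in K298E (13 and 1 at an unadjusted p under 0.05), and 12 and 0 in Δ(177-191) cells (13 and 0). The median relative change of this list was -0.02 in WT cells, 0.83 in K298E cells and 1.03 with Δ(177-191). A higher relative change need not be a rise, since it also holds the change in vector cells. Lcn2, called higher in K298E cells, went from 220 to 201 there and from 437 to 120 in vector cells. How many of the list rose from a line's own 0 h was not counted. At 0 h 1 of the 18 was higher than in vector and 6 were lower in K298E cells, and 13 were higher and 1 lower with Δ(177-191). Cxcl2, a neutrophil chemokine, went from 242 ± 20.2 to 646 ± 97.8 in Δ(177-191) cells and from 43 ± 3.46 to 10.7 ± 4.16 in vector cells (3.20 ± 0.36, limma adjusted p = 3.01e-09). Its relative change was 1.63 ± 0.36 in K298E cells, where it read 23.7 and 20.7 (limma adjusted p = 0.00317), and 1.85 ± 0.36 in WT cells, where it read 18.7 and 19.3 (adjusted p = 0.000384). Lcn2, an iron-scavenging granule protein, rose in WT cells from 594 ± 16.9 to 1513 ± 28.4 (3.18 ± 0.20, limma adjusted p = 2.74e-15), and Ninj1, a membrane rupture protein, fell (-0.71 ± 0.12, adjusted p = 5.91e-05).

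**Figure D3:**
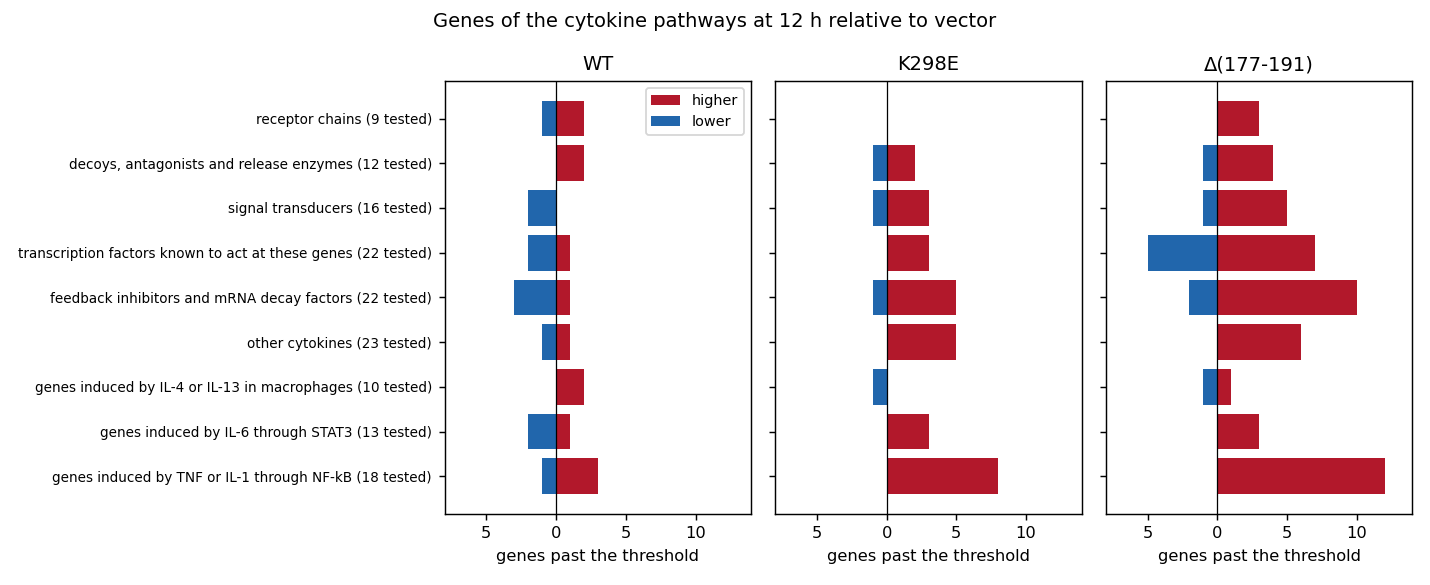
Number of genes past the threshold in each list at 12 h relative to vector, higher to the right and lower to the left, by fusion line. The NF-κB list has 3 higher in WT cells, 8 in K298E cells and 12 with Δ(177-191), and the signal transducer list has 2 lower and 0 higher in WT cells. A gene that fell in vector cells can count as higher without a rise in the fusion line.

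The nearest protein-coding genes were read beside each member. Around Il4 and Il13 on chromosome 11, the repair gene Rad50 (-0.40 ± 0.12, limma adjusted p = 0.0318) and Septin8 (-0.75 ± 0.17, adjusted p = 0.00358) were lower in WT cells at 12 h. Kif3a, a kinesin gene, was at -0.15 ± 0.15 (adjusted p = 0.75) and Irf1 at -0.51 ± 0.16 (adjusted p = 0.054), so none of these 4 was called higher in the line where Il4 rose. With Δ(177-191) Rad50 (-0.53 ± 0.12, limma adjusted p = 0.000719) and Septin8 (-1.14 ± 0.17, adjusted p = 2.36e-06) were lower too. Around Tnf and Lta on chromosome 17, Ltb, the lymphotoxin β gene, was at -0.61 ± 0.22 in WT cells (limma adjusted p = 0.108) and at 0.82 ± 0.22 in K298E cells (adjusted p = 0.0186). The myeloid gene Lst1 was at -0.50 ± 0.09 in WT cells (limma adjusted p = 0.000228) and 0.87 ± 0.09 in K298E cells (adjusted p = 9.56e-09), with vector signals of 1549 and 683 at 0 and 12 h. Next to Il1a on chromosome 2, Il1b went from 13.3 to 66 in Δ(177-191) cells, a relative change of 1.90 ± 0.52 (limma adjusted p = 0.00627), and was at -0.70 ± 0.52 in WT (adjusted p = 0.623) and -0.47 ± 0.52 in K298E cells (adjusted p = 0.785). Slc20a1, a phosphate transporter gene beyond Ckap2l, was higher in Δ(177-191) cells as well (0.88 ± 0.10, limma adjusted p = 9.22e-09). Beside Il6 on chromosome 5, 3 of the 6 nearest genes were tested, and in WT cells Ube3c was at -0.30 ± 0.11 (limma adjusted p = 0.123), Dnajb6 at -0.09 ± 0.12 (adjusted p = 0.843) and Tyms at 0.06 ± 0.41 (adjusted p = 0.981). Ube3c, a ubiquitin ligase gene, was lower in K298E (-0.46 ± 0.11, limma adjusted p = 0.00799) and Δ(177-191) cells (-0.42 ± 0.11, adjusted p = 0.00393).

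**Figure D4:**
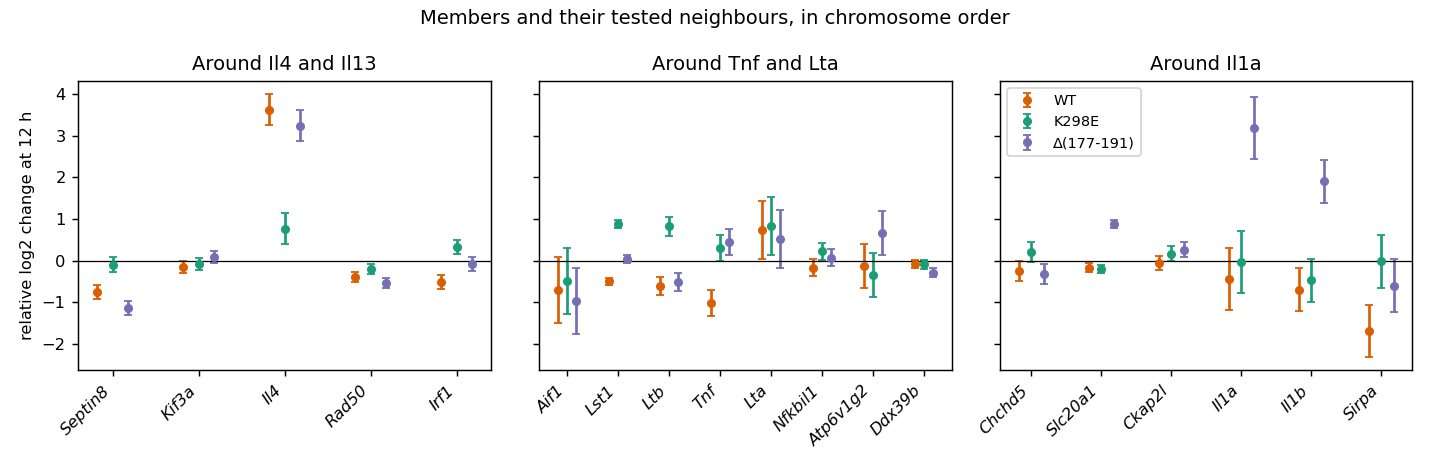
Relative log2 change at 12 h of members and their nearest tested neighbours, in chromosome order at equal spacing, with bars of 1 model standard error, for each fusion line. Il4 stands apart from its neighbours in WT and Δ(177-191) cells, and Il1b lies above 0 next to Il1a in Δ(177-191) cells.

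Several other cell types express these cytokines, and their markers were read on the same arrays, where fewer cells of a type and less RNA per cell cannot be told apart. The summed signal of the 8 T cell markers on the array was 28 to 85 in vector, WT and K298E arrays and 87 to 314 in Δ(177-191) arrays. Its largest parts in Δ(177-191) cells were Cd247 (group means of 30.7 to 154) and Cd3d (2.67 to 59.7), while Cd3e and Cd3g had no Δ(177-191) group mean above 11.7 and Cd4 none above 8. Il7r reached 16 there and Cd8a 24.3, against 23 for Cd8a in WT and 22.3 in vector cells. Of the 8 markers 4 had a group mean above the median signal in Δ(177-191) cells and 1 in each other line. The mast cell and basophil sum of 10 markers was 1512 to 2528 in WT, 1771 to 2249 in vector, 1759 to 2082 in K298E and 186 to 533 in Δ(177-191) arrays. Most of it was Gata2 and the protease gene Cpa3, while the defining genes Fcer1a, Mcpt8, Ms4a2 and Tpsb2 stayed at group means of 14.7 or less in each line. In WT cells this sum went from 2175 to 2528 at 0 h to 1512 to 1716 at 12 h. Gata2, also a factor of progenitors, went from 1841 to 945 there, while the Cpa3 group means lay between 419 and 598. The sum thus follows Gata2, and whether Il4 goes with mast cell or basophil traits was not tested. The macrophage sum of 9 markers was 770 to 1166 in vector, 1481 to 2053 in WT, 1563 to 1998 in K298E and 2674 to 3626 in Δ(177-191) arrays, where Tnf and Il1a were highest. Its largest parts in Δ(177-191) cells were Adgre1 (group means of 1139 to 2208) and Cd68 (855 to 1675). Csf1r, Cd14 and Mrc1 reached 80, 78.7 and 19 in that line, where C1qa, C1qb, Marco and Msr1 had no group mean above 14.3. B cell and fibroblast sums did not exceed 100 and 129 on any array. The part of the Δ(177-191) line's T cell and macrophage marker signal in its Tnf and Il1a values was not tested.

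**Figure D5:**
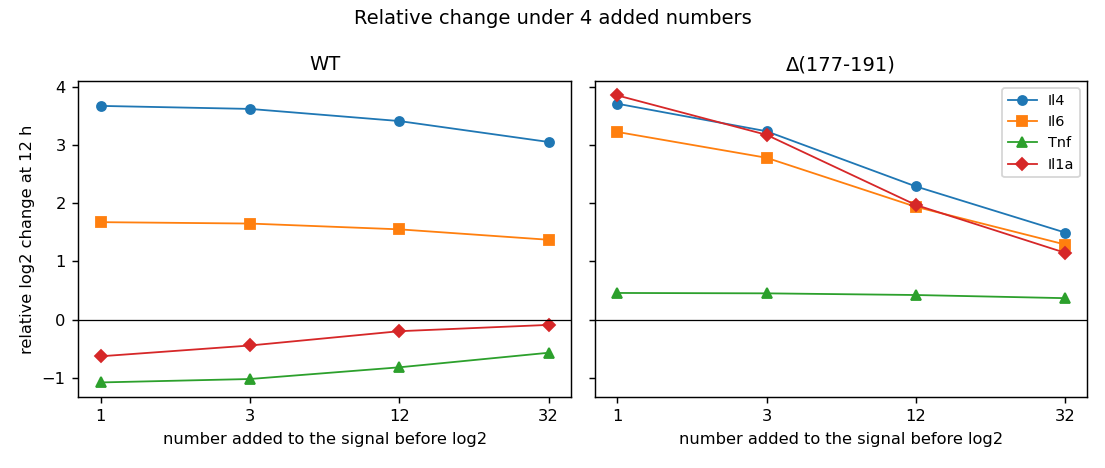
Relative log2 change at 12 h of 4 members when 1, 3, 12 or 32 was added to the signal before the logarithm, in WT and Δ(177-191) cells. In WT cells Il4 stays between 3.05 and 3.67, while in Δ(177-191) cells Il4, Il6 and Il1a shrink to between 1.15 and 1.49 at 32, since they start near the floor.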

How the data were processed

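Total RNA was hybridised to Affymetrix MOE430_2 arrays, 48 in 16 groups of 3. The authors deposited signal intensities made with MAS5, per the submitters' processing notes. They are whole numbers and not logarithms. No source used here gives the MAS5 version. For the fit 3, the 20th percentile, was added to each signal and log2 taken. After leaving out 64 controls, the 27167 probe sets with at least 1 group mean above the median log2 value, 4.09 (a signal of 14), were tested. Symbols came from the platform annotation. One limma 3.58.1 model (R 4.3.3) held all 16 groups, with variance trend, 32 residual degrees of freedom and two-sided p-values adjusted by Benjamini and Hochberg over all probe sets, threshold 0.05; errors of log2 changes are model standard errors. The fit was tested on simulated data. Each gene was represented by its brightest probe set. The number of arrays limits the precision.

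The members and lists were chosen with earlier results of these data known. Genes named besides the members were the 2 largest rises and falls of each list past the threshold in WT at 12 h, the 3 nearest neighbours on each side, and the 3 genes with the highest correlation over 16 group means. Alternatives were added numbers of 1, 12 and 32, 2 other filters, 2 scalings, compared arrays alone, array weights, all probe sets of a gene, a replicate block, and arrays left out. Il5, Il3, Csf2, Arg1, Chil3 and Retnla were named after their values were seen.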

Additional observations from a re-analysis of the deposited data

Results flagged for a closer look

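The changes of 4 members after 4-HT were furthest apart, relative to their errors, between the WT line and a mutant line. The differences are given as a description, since the genes were chosen with these changes known and Il1a passed the filter through the Δ(177-191) arrays alone. Averaged over 6, 9 and 12 h, the log2 change of Il4 was 2.71 ± 0.30 (model standard error) larger in WT than in K298E cells, and that of Il6 was 1.11 ± 0.32 larger. For Tnf the WT change minus the K298E change was -1.22 ± 0.25, and minus the Δ(177-191) change it was -0.86 ± 0.25. For Il1a the WT change minus the Δ(177-191) change was -2.95 ± 0.61. It ran from -3.61 with 1 added to the signal to -1.03 with 32 added. Of all probe sets 13.7% passed in the comparison of WT with K298E and 19.8% in that of WT with Δ(177-191).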

How the results depend on the processing

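No member value that passed the threshold changed sign under an alternative, and the values that moved most start near the floor. With 1 added to the signal, the 12 h relative change in Δ(177-191) cells was 3.71 for Il4, 3.22 for Il6 and 3.85 for Il1a, and their differences from vector at 0 h were -3.60 for Il4 and -5.58 for Il6. With 12 added, these were 2.29, 1.94 and 1.97, and -2.20 and -4.03, and Lta at 0 h was at -1.91 in WT cells, -1.65 in K298E cells and -1.59 with Δ(177-191). With 32 added, the relative changes were 1.49, 1.29 and 1.15 and the 0 h differences -1.42 and -3.04, Lta at 0 h was at -1.19, -1.07 and -1.01, Il6 in K298E at 0 h at -1.73, Il4 in WT at 3.05, Tnf in WT at -0.57, and Tnf in Δ(177-191) at 0 h at 0.98.

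Of the list genes, 4 were higher in K298E than in vector at 0 h, against 2 with no filter, 7 with median centring, 7 with array weights and 9 with all probe sets of a gene. Counting all probe sets in the relative change at 12 h, 72 were higher in Δ(177-191), 19 lower in WT and 7 lower in K298E cells, and at 0 h 23 were higher in WT and 38 lower in Δ(177-191) cells.

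Leaving out replicates gave these ranges. The relative change at 12 h in Δ(177-191) cells ran from 2.67 to 3.65 for Il4, 2.05 to 3.51 for Il6, -0.67 to 1.12 for Lta and 0.18 to 0.86 for Tnf. For Tnf it ran from -1.30 to -0.49 in WT and from 0.023 to 0.71 in K298E cells, and for Il1a from -0.45 to 0.70 in K298E. At 0 h the Δ(177-191) difference ran from -3.55 to -2.59 for Il4, -5.54 to -4.50 for Il6, -2.71 to -1.51 for Lta and 0.87 to 1.61 for Tnf, which was -0.81 to -0.12 in K298E and -0.37 to 0.34 in WT. List genes higher at 12 h were 8 to 14 in WT and 9 to 22 in K298E, and lower 5 to 11 and 1 to 4. At 0 h they were 7 to 11 and 2 to 3 higher, and 4 to 8 and 8 to 15 lower. 

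Some calls were lost or gained at the threshold, which for the members describes the fit and is no test. The 12 h call of Tnf in WT was lost in 9 of 15 fits with replicates left out, with 12 added (-0.82) or 32, with no filter (-1.02), median centring (-0.99), quantile normalization (-0.94) and the compared arrays alone (-1.02). The 0 h call of Il4 in K298E was lost in 8 of 9, with 1 added (-0.92), no filter (-0.89), median centring (-0.83) and quantile normalization (-0.82). Without replicate 2 those of Il6 in WT (1.64) and Il1a in Δ(177-191) (3.02) at 12 h and of Lta in K298E at 0 h (-2.31) were lost, and without replicate 3 those of Lta at 0 h in K298E (-2.03) and Δ(177-191) (-1.51). Lta passed at 12 h with 32 added, in WT (0.61) and K298E (0.65), and without vector replicate 3 at 0 h Tnf passed in Δ(177-191) at 12 h (0.86) and in K298E at 0 h (-0.81). Of the mean changes, WT minus K298E was no longer called for Il6 without replicate 2 (1.07) or WT replicate 1 at 0 h (0.98) and for Tnf without replicate 2 (-1.10), nor WT minus Δ(177-191) for Tnf without replicate 1 (-0.81) or 2 (-0.90). With 32 added these Tnf differences were -0.77 and -0.53. Not called as reported, WT minus Δ(177-191) passed for Il4 with 12 (1.27) or 32 (1.60) added, without replicate 2 (1.10) and without Δ(177-191) replicate 2 at 0 h (1.18). For Il6 it was -0.49, and it passed in opposite directions, at 0.42 with 32 added, and at -1.27 without replicate 1 and -0.91 without Δ(177-191) replicate 1 at 0 h. The cause was not tested.

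Same-numbered arrays shared little deviation at the median (r = 0.02 over 360 pairs, against -0.01 over the others). Yet 24 of 48 arrays lay closest to their own number, with 3 numbers to choose from. Whether replicate numbers mark shared experiments was therefore not settled. With the replicate block Il4 in WT stayed at 3.62 ± 0.37, and the 12 h list counts were 13 and 11 in WT, 24 and 4 in K298E, and 45 and 10 in Δ(177-191) cells.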
